A study of Mus musculus with 12 samples.

Results

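The serpins are a large protein family, named for the members that inhibit serine proteases. Of the 18193 genes read from the liver arrays, 38 belonged to it by a rule on gene symbols: every symbol of the form Serpina to Serpini followed by a number, and Serping1, without the thrombin inhibitors Serpinc1 and Serpind1. A gene with more than 1 probe set of its own was read from the brightest, by the mean of the 12 arrays. The family is divided into clades, and 14 members fell in clade A, 18 in clade B, 2 in clade F, 1 in clade G, 1 in clade H and 2 in clade I. Clade E was not analysed here.

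A serpin presents a flexible loop to its protease as bait. Once the loop is cut, an inhibitory serpin springs into a new fold and holds the protease in a covalent complex, so that both molecules are spent. Clade A proteins are mostly secreted, and the hepatocyte is the main source of those in plasma, among them α1-antitrypsin and the carriers of cortisol and thyroxine. Clade B proteins lack a classical signal peptide and mostly stay inside the cell. Serpinh1 (HSP47) works inside the endoplasmic reticulum (ER) as a chaperone of collagen. The secreted members are folded and N-glycosylated in the ER before export.

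Liver RNA came from 12 mice, with 3 animals in each of 4 groups: Atf6a-/- mice given tunicamycin (TM), wild-type mice given TM, Atf6a-/- mice given vehicle and wild-type mice given vehicle. TM blocks N-linked glycosylation and so provokes ER stress, and ATF6α is an ER stress sensor that acts as a transcription factor once cleaved. TM was injected into the peritoneum at 1 mg/kg in 150 mM dextrose, the vehicle was dextrose alone, and livers were taken after 34 h. Age and sex varied between animals and are not given for each one. The knockout is constitutive, whole liver was homogenised, and each array measured 1 animal. Levels are log2 values on an Affymetrix array, and the precision is limited by 3 animals a group.

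A gene was called changed at an adjusted p under 0.05 in limma and a difference over 1.5-fold. On the brightest probe set for Atf6, levels were 6.60 to 6.88 in Atf6a-/- livers after vehicle, against 8.42 to 8.54 in wild-type livers. After TM they were 9.23 to 9.81 in Atf6a-/- livers, against 9.30 to 9.72 in wild-type livers. The labels do not say which part of Atf6 was removed. The lower level after vehicle follows the genotype labels, and after TM this probe set checks nothing. Xist was high in animal 1 of the Atf6a-/- TM, the Atf6a-/- vehicle and the wild-type vehicle groups, at 12.19 to 12.39, and in none of the wild-type TM animals, at 5.56 to 6.68. High Xist marks female animals, so by this marker sex was not balanced in comparisons that use the wild-type TM group. Wild-type TM animal 2 stood apart from animals 1 and 3 of its group on the first principal component, at 29.5, against -12.9 and -11.9.

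For 19 of the 38 members the highest group mean was under 4.71, the highest median of any array, and these members are called dim. They comprised 5 members of clade A, 12 of clade B and the 2 of clade I (Serpini1 and Serpini2, which are known from neurons and pancreas). Their levels ran from 2.74 to 5.13 in single animals. None was called by limma in any comparison, although at an unadjusted p under 0.05 the number was 6 for the TM response of Atf6a-/- livers and 3 for that of wild-type livers. For such probe sets a lack of change in the mRNA cannot be read from these arrays.

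**Figure D1:**
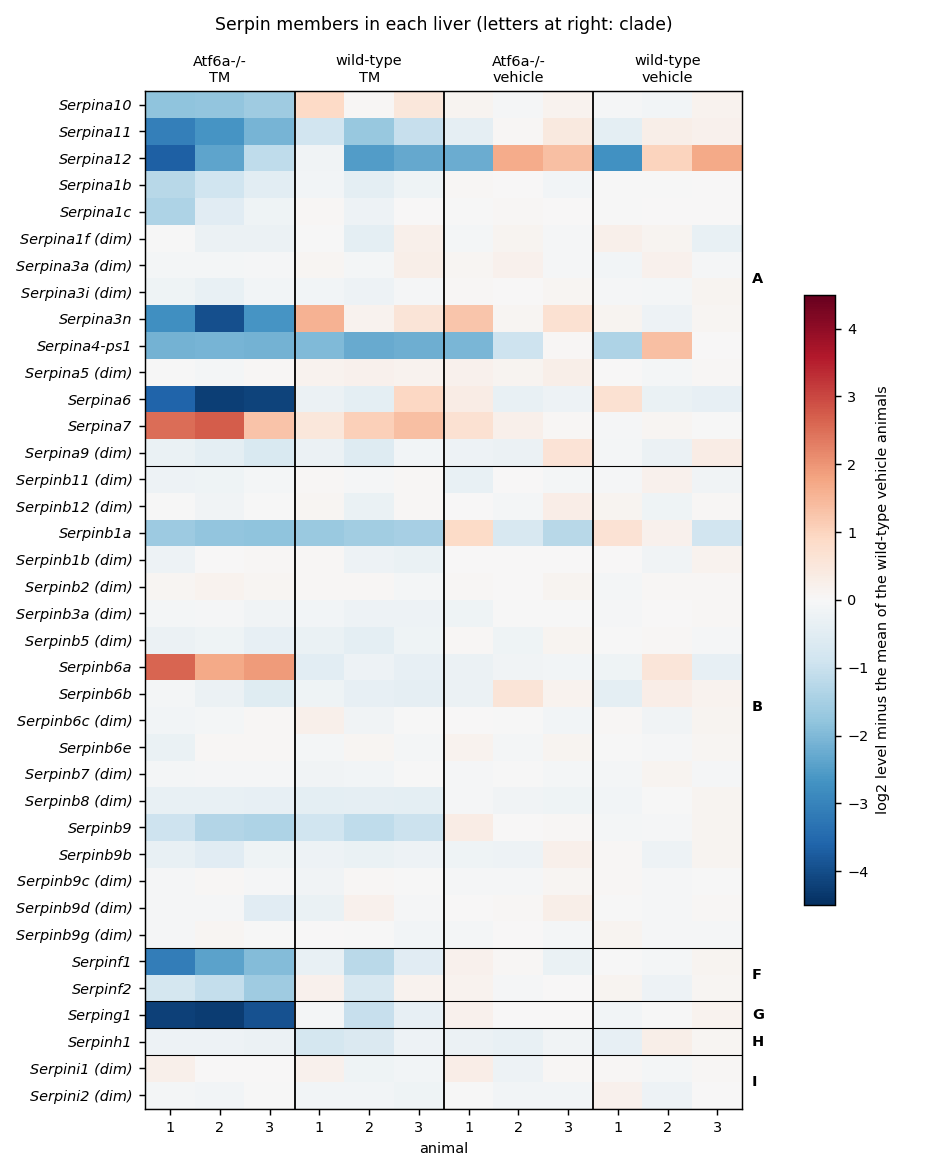
All 38 serpin members (rows, by clade) in the 12 livers (columns, by group). Colour gives the log2 level of each animal minus the mean of the wild-type vehicle animals, and blue rows in the Atf6a-/- TM columns are led by Serping1, Serpina6 and Serpina3n, with Serpinb6a and Serpina7 in red.

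Promoters are given first for members whose mRNA moved with TM in Atf6a-/- livers. Of the 38 members, 32 had a window in the RefSeq table (GRCm38.p6), which runs from 250 bases before the start site to 50 bases after it. Serping1, Serpina6 and Serpina10 were among the members without one, so their promoters were not searched. The windows were searched on both strands for 8 motifs. In the first sequences, printed 5′ to 3′, capitals mark GTTAAT, which is known from sites for hepatocyte nuclear factor 1. They belong to Serpina1b (chr12:103738140-103738439, minus strand) and Serpina1c (chr12:103904901-103905200, minus strand), which fell, and to Serpina7 (chrX:139085170-139085469, minus strand, the second of its listed start sites), which rose.
Serpina1b: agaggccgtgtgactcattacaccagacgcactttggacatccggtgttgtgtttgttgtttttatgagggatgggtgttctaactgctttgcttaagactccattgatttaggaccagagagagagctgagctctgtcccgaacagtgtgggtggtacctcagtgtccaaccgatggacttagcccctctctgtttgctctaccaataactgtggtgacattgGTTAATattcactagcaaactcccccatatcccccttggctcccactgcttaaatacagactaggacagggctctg
Serpina1c: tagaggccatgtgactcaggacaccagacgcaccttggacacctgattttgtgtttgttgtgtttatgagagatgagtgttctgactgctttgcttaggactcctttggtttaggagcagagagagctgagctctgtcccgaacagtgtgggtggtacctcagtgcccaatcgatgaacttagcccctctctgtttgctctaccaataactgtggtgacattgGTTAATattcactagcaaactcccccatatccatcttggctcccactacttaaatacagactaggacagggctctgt
Serpina7: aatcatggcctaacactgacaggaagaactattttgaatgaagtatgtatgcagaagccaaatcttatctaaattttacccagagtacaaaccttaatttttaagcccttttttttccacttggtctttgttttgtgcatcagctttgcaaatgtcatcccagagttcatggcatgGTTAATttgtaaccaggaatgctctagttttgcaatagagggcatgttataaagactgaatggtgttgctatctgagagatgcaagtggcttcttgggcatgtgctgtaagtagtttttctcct
The windows of Serpina1b and Serpina1c, which both encode α1-antitrypsin, share an unbroken run of 78 bases that includes the capitals.

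On either strand, GTTAAT was found in the windows of 5 of 32 members, against 7.10% of all 32851 windows. Here and below a member counts if any of its windows matched, and the 32 members had 38 windows. The share of all windows counts each window singly, so the 2 sides differ in unit. Serpinf1, which fell, held the composite element TGATGNAAT bound by ATF4 with a C/EBP partner (chr11:75422574-75422873, minus strand, capitals).
Serpinf1: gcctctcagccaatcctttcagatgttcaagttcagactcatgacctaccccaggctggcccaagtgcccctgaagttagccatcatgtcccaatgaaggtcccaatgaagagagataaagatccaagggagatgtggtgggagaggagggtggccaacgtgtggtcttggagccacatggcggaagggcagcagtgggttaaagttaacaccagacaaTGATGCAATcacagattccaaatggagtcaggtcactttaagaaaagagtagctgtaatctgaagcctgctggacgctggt
Serpinb6a, which rose, held the STAT element TTCNNNGAA at 2 places (chr13:34002745-34003044, minus strand, capitals).
Serpinb6a: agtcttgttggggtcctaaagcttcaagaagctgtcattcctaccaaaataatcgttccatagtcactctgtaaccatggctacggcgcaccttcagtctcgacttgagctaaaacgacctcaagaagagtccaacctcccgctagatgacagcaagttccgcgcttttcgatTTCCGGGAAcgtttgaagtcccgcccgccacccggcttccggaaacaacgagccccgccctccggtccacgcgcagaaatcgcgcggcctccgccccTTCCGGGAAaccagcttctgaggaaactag
The composite element was in 2 of 32 members' windows and in 0.965% of all windows, and the STAT element in 6 of 32 and in 8.30%. TTGCNNAA, a C/EBP sequence, was in 7 of 32 and in 10.8%. No window of the 32 members searched held CAAAGTCCA for HNF4 (0.475% of all windows), the full ER stress element (0.119%), the UPR element core TGACGTGG (0.676%) or the heat shock element of 3 inverted repeats (0.603%). Serping1, Serpina6 and Serpina10 are not among these 32. Matches of different motifs did not overlap in these windows. A match describes the sequence only, and says nothing of whether a factor binds there.

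The comparison of TM with vehicle within each genotype asks how the stressed liver adjusts its serpin mRNAs, with and without ATF6α. In Atf6a-/- livers 13 of 38 members were called, 2 higher and 11 lower. Over all 18193 genes 28.0% were called in that comparison, 15.2% higher and 12.8% lower. In wild-type livers 2 of 38 members were called, both lower (Serpina11 and Serpinb9), against 7.31% of all genes. Both of these were also among the 11 that fell in Atf6a-/- livers. The arrays measure whole liver, so fewer cells of a type and less RNA per cell cannot be told apart.

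By clade, the falls lay mostly among the secreted proteins. In Atf6a-/- livers 6 of 14 clade A members fell and 1 rose, with a median log2 difference of -0.77. In the 6 members of clades F, G, H and I, 3 fell and none rose (median -0.60). In clade B 2 of 18 fell and 1 rose (median -0.10), and the median over all genes was -0.01. Clade B also held 12 of the dim members, so that clades A and B differed in how many members could have been called as well as in how many were. Without the dim members, the medians were -1.81 over 9 clade A members and -0.37 over 6 clade B members, a description over the members that were left. A member could be left in through its vehicle levels alone. Serpinb1a, for example, had group means of 4.72 (Atf6a-/-) and 5.09 (wild-type) after vehicle, but 3.35 and 3.52 after TM. Such members favour falls, so these medians do not compare the clades.

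**Figure D2:**
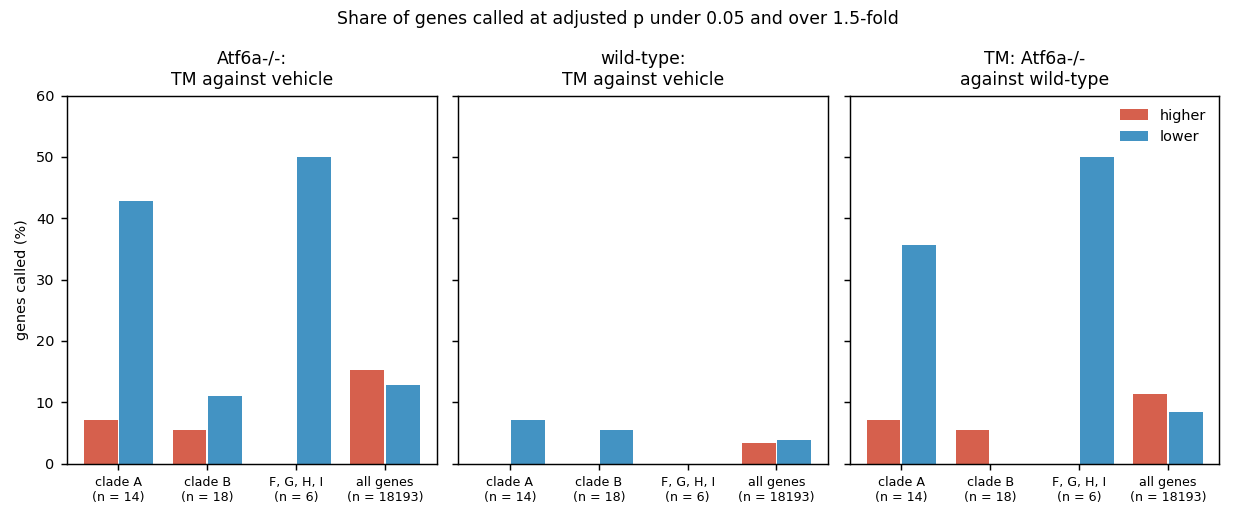
Share of genes called (vertical axis, percent) in clade A, clade B, the other clades and all genes, for each of 3 comparisons. Red bars are genes called higher and blue bars genes called lower. In Atf6a-/- livers after TM, 6 of 14 clade A and 3 of 6 members of the other clades were lower, beside 12.8% of all genes.

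The largest fall in the family was that of Serping1, the C1 inhibitor, which restrains the first proteases of the complement cascade and plasma kallikrein. Its levels were 9.21, 9.13 and 9.49 in Atf6a-/- TM animals and 13.59, 13.44 and 13.43 in Atf6a-/- vehicle animals. It thus fell 18.5-fold (log2 difference -4.21 ± 0.20, standard error, adjusted p = 4.04e-08). In wild-type animals the levels were 13.32, 12.39 and 13.04 after TM, against 13.27, 13.40 and 13.57 after vehicle. These overlapped, and the difference of -0.49 ± 0.20 was not called (adjusted p = 0.191). Between the genotypes after TM, Serping1 was 12.5-fold lower in Atf6a-/- livers (-3.64 ± 0.20, adjusted p = 3.37e-07).

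Serpina6, corticosteroid-binding globulin, carries glucocorticoids in plasma and does not inhibit proteases. It had levels of 7.92, 7.31 and 7.38 in Atf6a-/- TM animals, against 11.87, 11.21 and 11.31 in Atf6a-/- vehicle animals, a fall of 15.2-fold (-3.93 ± 0.37, adjusted p = 6.42e-06). In wild-type animals it stood at 11.27, 11.10 and 12.46 after TM, against 12.22, 11.23 and 11.18 after vehicle (0.07 ± 0.37, adjusted p = 0.957). The wild-type groups lay on top of each other, while no Atf6a-/- TM animal came within 3 log2 units of any other animal. After TM, Serpina6 was 16.8-fold lower in Atf6a-/- than in wild-type livers (-4.07 ± 0.37, adjusted p = 1.40e-05).

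Serpina3n is an acute-phase serpin of the mouse, related to human α1-antichymotrypsin, and responds to cytokines in the liver. Levels were 8.28, 7.08 and 8.37 in Atf6a-/- TM animals and 12.29, 11.13 and 11.71 in Atf6a-/- vehicle animals (-3.80 ± 0.41, adjusted p = 1.99e-05). In wild-type livers they were 12.61, 11.18 and 11.60 after TM, against 11.15, 10.80 and 11.13 after vehicle. All wild-type TM animals lay above the wild-type vehicle animals, but the difference of 0.77 ± 0.41 was not called (adjusted p = 0.369). After TM the level was 14.8-fold lower in Atf6a-/- than in wild-type livers (-3.89 ± 0.41, adjusted p = 4.47e-05).

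Serpina10 encodes the protein Z-dependent protease inhibitor, which inhibits factor Xa on membranes with protein Z as its cofactor, and factor XIa without it. It measured 10.16, 10.20 and 10.37 in Atf6a-/- TM animals, against 12.11, 11.92 and 12.14 in Atf6a-/- vehicle animals (-1.81 ± 0.18, adjusted p = 8.60e-06). In wild-type animals it was 12.88, 12.04 and 12.49 after TM, against 11.91, 11.87 and 12.15 after vehicle (0.49 ± 0.18, adjusted p = 0.138). After TM it was 4.68-fold lower in Atf6a-/- than in wild-type livers (adjusted p = 5.78e-06). Serpina10 thus had its lowest levels in the 3 Atf6a-/- TM animals and its highest in wild-type TM animals 1 and 3.

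The clade F genes, Serpinf1 and Serpinf2, are neighbours on chromosome 11. Serpinf1, pigment epithelium-derived factor, is a secreted serpin that restrains vessel growth and inhibits no protease. It had levels of 10.11, 10.81 and 11.29 in Atf6a-/- TM animals, against 13.43, 13.27 and 12.92 in Atf6a-/- vehicle animals (-2.47 ± 0.28, adjusted p = 2.70e-05). Wild-type animals had 12.88, 12.03 and 12.71 after TM and 13.21, 13.13 and 13.34 after vehicle, without overlap but not called (-0.69 ± 0.28, adjusted p = 0.201). A second Serpinf1 probe set gave the same calls, with -2.52 ± 0.29 in Atf6a-/- livers.

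Serpinf2, α2-antiplasmin, is the main plasma inhibitor of plasmin and thereby slows the dissolution of clots. It measured 11.45, 11.16 and 10.65 in Atf6a-/- TM animals, against 12.41, 12.20 and 12.24 in Atf6a-/- vehicle animals (-1.20 ± 0.24, adjusted p = 0.00243). In wild-type animals it was 12.43, 11.53 and 12.40 after TM, against 12.38, 12.02 and 12.33 after vehicle, with wild-type TM animal 2 the lowest (-0.12 ± 0.24, adjusted p = 0.865). After TM, Atf6a-/- livers were lower than wild-type livers in Serpinf1 (-1.80 ± 0.28, adjusted p = 6.44e-04) and in Serpinf2 (-1.03 ± 0.24, adjusted p = 0.00993). The Serpinf2 difference lost its call without wild-type TM animal 3 (adjusted p = 0.0528) and in 2 other alternatives of 20.

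Serpina11 belongs to the chromosome 12 cluster of clade A and fell in both genotypes. Its levels were 7.10, 7.50 and 8.08 in Atf6a-/- TM animals, against 9.77, 10.20 and 10.59 in Atf6a-/- vehicle animals (-2.63 ± 0.30, adjusted p = 3.14e-05). In wild-type animals they were 9.30, 8.45 and 9.14 after TM, against 9.73, 10.41 and 10.34 after vehicle (-1.20 ± 0.30, adjusted p = 0.0339). The wild-type call was lost in 5 of 19 alternatives, among them the fits without wild-type TM animal 2 or 3 and without wild-type vehicle animal 2 or 3 (adjusted p = 0.0607 to 0.125). After TM the level was 2.65-fold lower in Atf6a-/- than in wild-type livers (adjusted p = 0.00560).

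α1-antitrypsin, the inhibitor of neutrophil elastase, is made in the mouse by several near-identical Serpina1 copies, so that probe sets can share signal between them. Serpina1b measured 13.29, 13.65 and 14.08 in Atf6a-/- TM animals, against 14.59, 14.57 and 14.40 in Atf6a-/- vehicle animals (-0.85 ± 0.16, adjusted p = 0.00169). With arrays shifted by the spike-in controls it was -0.37 and lost the call (adjusted p = 0.0672). In wild-type animals it was 14.41, 14.11 and 14.36 after TM, against 14.53, 14.53 and 14.56 after vehicle (-0.25 ± 0.16, adjusted p = 0.498). A second Serpina1b probe set fell by 1.05 ± 0.17 in Atf6a-/- livers (adjusted p = 5.78e-04).

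Serpina1c measured 13.25, 14.13 and 14.45 in Atf6a-/- TM animals, against 14.62, 14.67 and 14.65 in Atf6a-/- vehicle animals (-0.70 ± 0.23, adjusted p = 0.0368). That call was lost in 8 of 19 alternatives, and without Atf6a-/- TM animal 1, the lowest, the difference was -0.35 (adjusted p = 0.0521). Wild-type animals had 14.68, 14.40 and 14.63 after TM and 14.60, 14.64 and 14.66 after vehicle. The vehicle values lie close to 14.91, the highest in the table, where the scale of an array is compressed. A dimmer probe set shared by Serpina1d and Serpina1a fell by 1.95 ± 0.36 in Atf6a-/- livers (adjusted p = 0.00122), and one shared by Serpina1e, Serpina1c and Serpina1b fell by 2.50 ± 0.50 (adjusted p = 0.00218). After TM, Serpina1b was 1.54-fold lower in Atf6a-/- than in wild-type livers (adjusted p = 0.0185), a call lost in 9 of 20 alternatives.

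Serpina7, thyroxine-binding globulin, is encoded on the X chromosome and not in the chromosome 12 cluster, and it was the only clade A member called higher in any comparison. Its levels were 10.78, 11 and 9.54 in Atf6a-/- TM animals, against 8.97, 8.50 and 8.32 in Atf6a-/- vehicle animals, a rise of 3.58-fold (1.84 ± 0.33, adjusted p = 0.00103). In wild-type animals they were 8.79, 9.33 and 9.62 after TM, against 8.20, 8.37 and 8.25 after vehicle. These did not overlap, but the difference of 0.97 ± 0.33 was not called (adjusted p = 0.118). Between the genotypes after TM the difference was 1.20 ± 0.33 (adjusted p = 0.0243), although Atf6a-/- animal 3 lay below wild-type animal 3 and the call was lost in 7 of 20 alternatives.

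Along chromosome 12 the 13 other clade A members follow one another as Serpina10, Serpina6, Serpina1f, Serpina1b, Serpina1c, Serpina11, Serpina9, Serpina12, Serpina4-ps1, Serpina5, Serpina3a, Serpina3i and Serpina3n, in the RefSeq order. Of the 6 that fell in Atf6a-/- livers, 5 were among the first 6 of this row and Serpina3n was its last. Further along, Serpina9, Serpina5, Serpina3a and Serpina3i were dim, against only Serpina1f among the first 6. Which members could have been called thus also differed along the row. Serpina6 and its neighbour Serpina10 differed in the size of their fall, at -3.93 ± 0.37 and -1.81 ± 0.18.

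**Figure D3:**
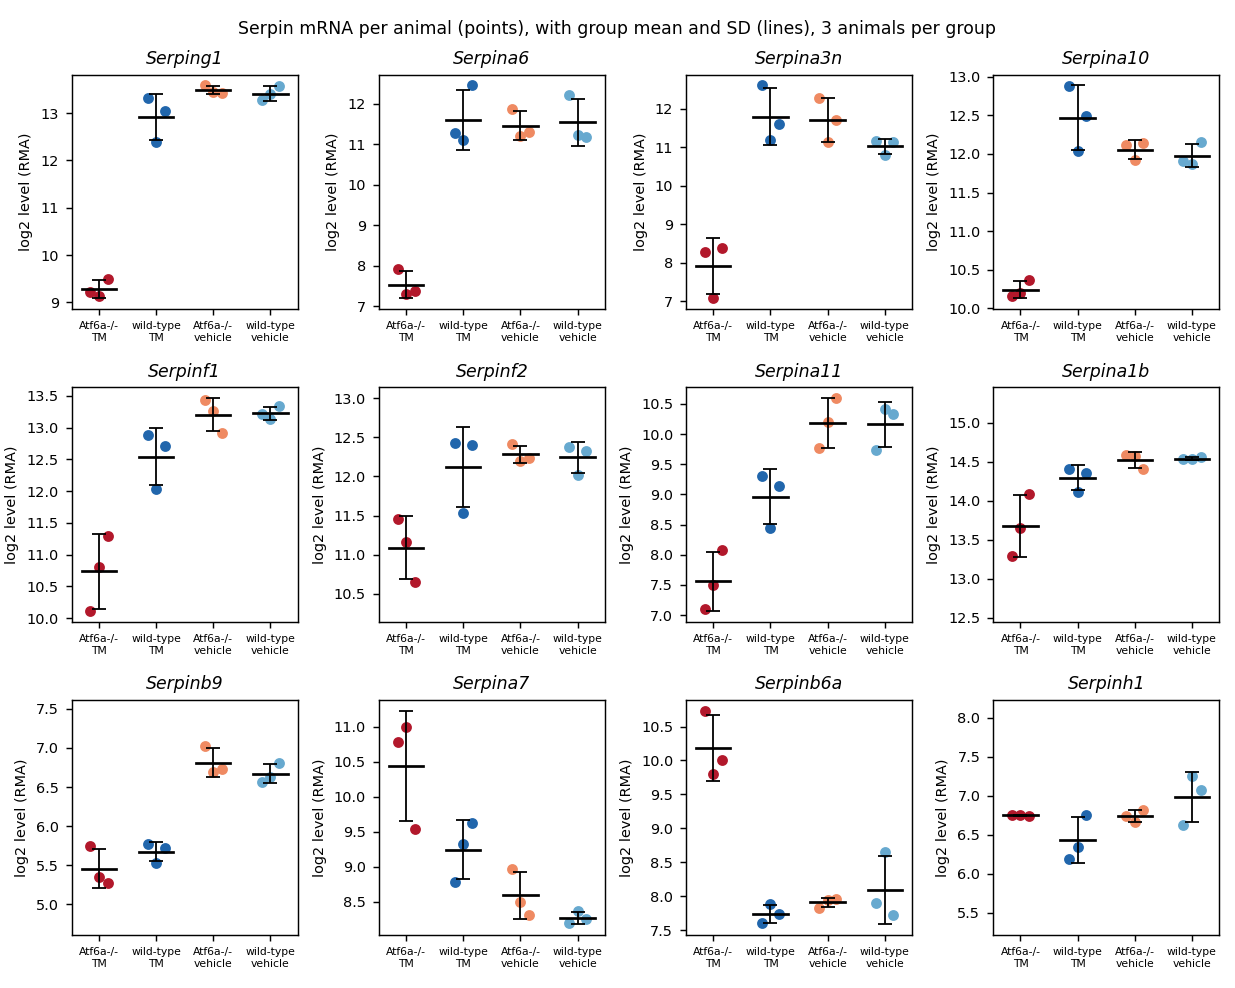
Log2 level (vertical axis) of 12 serpins in each animal (points) of the 4 groups, with the group mean and SD (lines, n = 3). The vertical axes differ between panels. The Atf6a-/- TM animals lie below all others for Serping1, at 9.13 to 9.49, and above all others for Serpinb6a, at 9.80 to 10.73.

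Of the intracellular clade B, Serpinb6a rose. It inhibits trypsin-like proteases and cathepsin G and is expressed in many cell types. Its levels were 10.73, 9.80 and 10.01 in Atf6a-/- TM animals, against 7.83, 7.94 and 7.96 in Atf6a-/- vehicle animals, a rise of 4.84-fold (2.28 ± 0.25, adjusted p = 2.35e-05). Wild-type animals had 7.61, 7.88 and 7.74 after TM and 7.90, 8.66 and 7.72 after vehicle (-0.35 ± 0.25, adjusted p = 0.542). After TM it was 5.42-fold higher in Atf6a-/- than in wild-type livers (2.44 ± 0.25, adjusted p = 3.69e-05), and every Atf6a-/- TM animal was above every other animal. Its call in each of these comparisons held under every alternative tried.

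Serpinb9, an inhibitor of granzyme B that protects cytotoxic lymphocytes and their neighbours, fell in both genotypes. It measured 5.74, 5.35 and 5.27 in Atf6a-/- TM animals, against 7.02, 6.69 and 6.73 in Atf6a-/- vehicle animals (-1.36 ± 0.14, adjusted p = 1.35e-05). In wild-type animals it was 5.77, 5.53 and 5.72 after TM, against 6.57, 6.63 and 6.81 after vehicle (-0.99 ± 0.14, adjusted p = 0.00114). The difference between these responses was -0.37 ± 0.20 and was not called (adjusted p = 0.330). A second, dimmer probe set moved the same way, by -0.54 in Atf6a-/- and -0.42 in wild-type livers, under 1.5-fold. Of 8 measured T and NK lymphocyte markers, 5 were dim and none was called in either response by limma (0 and 1 at an unadjusted p under 0.05). Gzmb, the target of Serpinb9, lay between 3.64 and 4.20 in all animals. Of 9 Kupffer cell and macrophage markers, 4 fell and 2 rose in Atf6a-/- livers, and 3 fell and 1 rose in wild-type livers. Over all genes 12.8% fell and 15.2% rose in Atf6a-/- livers, and 3.86% fell and 3.45% rose in wild-type livers. Clec4f had -1.76 in Atf6a-/- and -1.34 in wild-type livers, and Csf1r -1.66 in Atf6a-/- and -1.08 in wild-type livers. Vsig4 had -2.24 in Atf6a-/- and -1.45 in wild-type livers, and each of these falls was called. Marco rose in both (1.58 in Atf6a-/- and 1.81 in wild-type livers), and Cd68 rose in Atf6a-/- livers (3.07). The part of these cells in the Serpinb9 result was not tested.

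Serpinb1a, an inhibitor of neutrophil elastase and cathepsin G, stood low. Levels were 3.46, 3.32 and 3.28 in Atf6a-/- TM animals, against 5.95, 4.36 and 3.85 in Atf6a-/- vehicle animals, where animal 1 was far above the others (-1.37 ± 0.46, adjusted p = 0.0430). Wild-type animals had 3.42, 3.54 and 3.59 after TM and 5.74, 5.29 and 4.24 after vehicle (-1.57 ± 0.46, adjusted p = 0.0662). The Atf6a-/- call was lost in 9 of 19 alternatives, without Atf6a-/- vehicle animal 1 at -0.75 (adjusted p = 0.137), and a second probe set was flat at group means of 3.20 to 3.33. Serpinb8 was dim, at 3.93, 3.90 and 3.89 in Atf6a-/- TM animals and 4.21, 4.10 and 4.07 in Atf6a-/- vehicle animals, and at 3.82, 3.83 and 3.80 in wild-type TM animals and 4.12, 4.22 and 4.39 in wild-type vehicle animals. Its TM differences were -0.22 ± 0.09 in Atf6a-/- livers (adjusted p = 0.0943) and -0.43 ± 0.09 in wild-type livers (adjusted p = 0.0119). Neither passed 1.5-fold, and the wild-type difference was left uncalled by that threshold alone. The other 14 members of clade B were not called in any comparison, and 11 of them were dim.

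Serpinh1, the collagen chaperone, is the family's resident of the ER and is known as a target of heat shock factor 1. Its levels were 6.76, 6.75 and 6.74 in Atf6a-/- TM animals, against 6.74, 6.66 and 6.82 in Atf6a-/- vehicle animals (0.01 ± 0.17, adjusted p = 0.979). In wild-type animals they were 6.19, 6.35 and 6.76 after TM, against 6.63, 7.25 and 7.08 after vehicle (-0.55 ± 0.17, adjusted p = 0.0723). In neither genotype was it called. In wild-type livers this held in 16 of 19 alternatives, and the fall was called in the others (-0.72 to -0.73, adjusted p = 0.0174 to 0.0413). A second, dimmer probe set was not called either and was more spread, at 5.01 to 6.10 in Atf6a-/- TM animals. Of 18 collagen-folding genes listed beside Serpinh1, 4 rose and 2 fell in Atf6a-/- livers, and 3 rose in wild-type livers. The rises in Atf6a-/- livers were led by the prolyl hydroxylase P3h1 (2.30, adjusted p = 0.00134) and the ER prolyl isomerase Ppib (1.32, adjusted p = 1.42e-05). Of 11 heat shock factor targets, 4 rose and 1 fell in Atf6a-/- livers, with Hspb1 at 2.46, Hsph1 at 2.09 and Hspa1b at -1.36. None of the 11 was called in wild-type livers by limma (2 at an unadjusted p under 0.05). Over all genes 15.2% were called higher and 12.8% lower in Atf6a-/- livers, and 3.45% higher and 3.86% lower in wild-type livers. The Atf6a-/- counts of the 18 lay near these shares and say little about that list. The 3 rises of 18 in wild-type livers and the 4 rises of 11 in Atf6a-/- livers lay above them. These rest on few genes, and neither list was tested as a set. Of the collagen transcripts, Col1a1 lay at 3.86 to 4.89 in all animals, Col1a2 at 6.59 to 8.84 and Col3a1 at 4.78 to 8.85. Col1a2 fell in Atf6a-/- livers (-1.0, adjusted p = 0.0461) and had -0.84 in wild-type livers (adjusted p = 0.204), while Col3a1 had -1.30 in Atf6a-/- and -1.98 in wild-type livers and was not called.

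**Figure D4:**
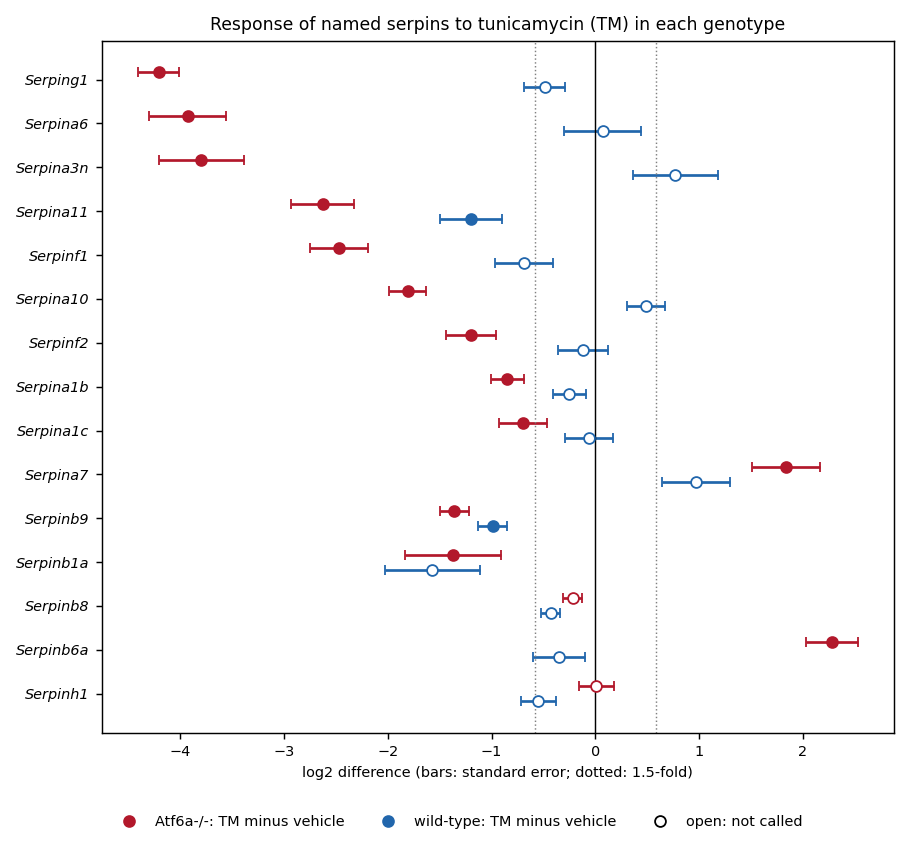
Log2 difference between TM and vehicle (horizontal axis, with standard error) for the 15 serpins given by animal, in Atf6a-/- (red, upper) and wild-type (blue, lower) livers. Filled points were called. Serping1 stood at -4.21 in Atf6a-/- and -0.49 in wild-type livers, while Serpinb9 fell in both.

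After TM, 10 of 38 members differed between Atf6a-/- and wild-type livers, 2 higher and 8 lower, beside 19.7% of all genes, 11.3% higher and 8.45% lower. The 8 lower members were Serpina10, Serpina11, Serpina1b, Serpina3n, Serpina6, Serpinf1, Serpinf2 and Serping1, and each of them also fell with TM in Atf6a-/- livers. These comparisons share the Atf6a-/- TM animals. In clade A 5 of 14 members were lower and 1 higher, in clade B 0 of 18 were lower and 1 higher, and in the other clades 3 of 6 were lower. After vehicle, no member was called between Atf6a-/- and wild-type livers by limma, with 1 at an unadjusted p under 0.05, and 0.00550% of all genes were called.

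The difference of the TM responses of the genotypes was tested itself. It was called for 6 of 38 members, 1 higher and 5 lower, beside 14.3% of all genes, 7.56% higher and 6.69% lower. Serpina3n had the largest difference, at -4.57 ± 0.58 (adjusted p = 4.69e-04), and Serpina6 followed at -3.99 ± 0.52 and Serping1 at -3.72 ± 0.28. For Serpina10 it was -2.30 ± 0.25, for Serpinf1 -1.78 ± 0.39 and for Serpinb6a 2.63 ± 0.36. Serpina11 had -1.43 ± 0.43, just outside the threshold (adjusted p = 0.0535), and was called in 12 of 24 alternatives. The Serpina7 responses, at 1.84 and 0.97, were not shown to differ (0.87 ± 0.47, adjusted p = 0.333).

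The proteases that plasma serpins inhibit are themselves made by the liver. Of 21 target proteases measured, 11 fell and 1 rose with TM in Atf6a-/- livers (median -1.29), while 5 fell and 1 rose in wild-type livers (median -0.33). Over all genes 12.8% were lower in Atf6a-/- livers and 3.86% in wild-type livers. Klkb1, plasma prekallikrein and a target of Serping1, measured 4.82, 4.92 and 5.34 in Atf6a-/- TM animals, against 11, 11.11 and 11.06 in Atf6a-/- vehicle animals (-6.03 ± 0.21, adjusted p = 7.14e-09). It thus fell further than its inhibitor, and it fell in wild-type livers too (-1.01 ± 0.21, adjusted p = 0.0128). Other targets of Serping1 fell in Atf6a-/- livers as well, with C1ra, a protease of the C1 complex, at -2.44 ± 0.23, Masp2 of the lectin pathway at -2.88 ± 0.31 and F12, coagulation factor XII, at -2.02 ± 0.28, while Masp1 was at -0.13 ± 0.18 and was not called. In wild-type livers C1ra fell as well (-1.16 ± 0.23, adjusted p = 0.00928), while Masp2, F12 and Masp1 were not called. F11, coagulation factor XI, had -3.58 ± 0.52 in Atf6a-/- and -2.04 ± 0.52 in wild-type livers, and fell in both. After TM, Masp1 was higher in Atf6a-/- than in wild-type livers (0.80, adjusted p = 0.00713).

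Serpina10 uses protein Z against factor Xa, and in Atf6a-/- livers Proz fell more than any other gene of the lists. Proz measured 4.53, 4.41 and 4.28 in Atf6a-/- TM animals, against 11.80, 11.55 and 11.36 in Atf6a-/- vehicle animals (-7.16 ± 0.15, adjusted p = 5.39e-10), and 9.89, 9.63 and 10.24 in wild-type TM animals, against 11.34, 11.26 and 11.26 in wild-type vehicle animals (-1.37 ± 0.15, adjusted p = 2.82e-04). In the Atf6a-/- TM animals Proz lay under 4.71, the limit used for dim genes. F10, the target of Serpina10 with protein Z, had -3.24 ± 0.19 in Atf6a-/- and -0.86 ± 0.19 in wild-type livers, and fell in both. Plg, from which plasmin is made, the target of Serpinf2, fell by 1.65 ± 0.14 in Atf6a-/- livers (adjusted p = 2.66e-06) and was at -0.30 ± 0.14 in wild-type livers (adjusted p = 0.284). Proc, the zymogen of the anticoagulant protease that human SERPINA5 inhibits, had -4.87 ± 0.23 in Atf6a-/- and -0.84 ± 0.23 in wild-type livers. Both falls were called, and Serpina5 itself was dim.

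**Figure D5:**
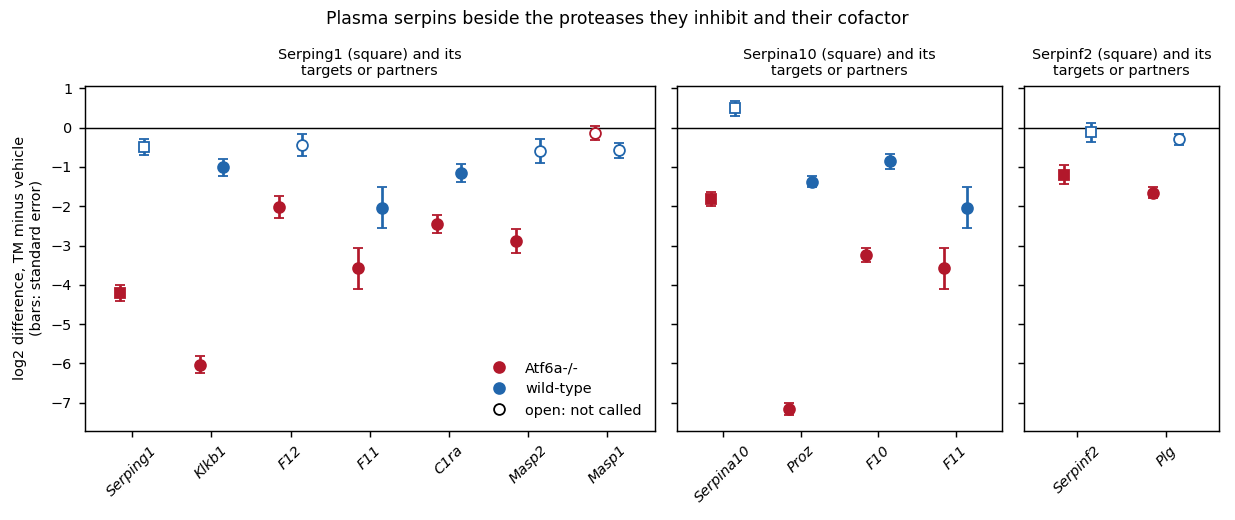
Log2 difference between TM and vehicle (vertical axis, with standard error) for 3 plasma serpins (squares) and the proteases they inhibit or their cofactor (circles), in Atf6a-/- (red, left) and wild-type (blue, right) livers. Filled points were called. Proz, at -7.16, and Klkb1, at -6.03, fell further in Atf6a-/- livers than Serpina10 and Serping1.

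The activators of plasminogen, Plat and Plau, were dim, at 3.75 to 4.94 in all animals, and neither was called. Plaur, the receptor of urokinase, rose with TM to 7.22, 6.77 and 7.48 in Atf6a-/- animals, against 5.41, 4.81 and 5.30 after vehicle (1.99 ± 0.23, adjusted p = 3.24e-05), and in wild-type livers by 0.92 ± 0.23 (adjusted p = 0.0316). Of the 16 partners, cofactors and receptors measured, 6 rose and 6 fell in Atf6a-/- livers, and 6 rose and 2 fell in wild-type livers, beside 28.0% of all genes called in Atf6a-/- and 7.31% in wild-type livers. Those that rose most were coat and cargo proteins of ER export, Sec23b (2.41 in Atf6a-/- and 1.37 in wild-type livers) and Mcfd2 (2.13 in Atf6a-/- and 1.40 in wild-type livers). Those that fell most in Atf6a-/- livers were Proz and Agt, angiotensinogen, which has the serpin fold but inhibits no protease and falls outside the symbol rule (-3.51, adjusted p = 1.76e-06).

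The secreted serpins also need folding helpers and, when misfolded, disposal by the ER. Of 14 genes listed for the folding and disposal of α1-antitrypsin, 12 rose in Atf6a-/- livers (median 0.89) and 13 in wild-type livers (median 1.23), and none fell in either, beside 15.2% and 3.45% of all genes called higher. Gfpt1, the first enzyme of the hexosamine pathway, rose most, by 4.66 in Atf6a-/- and 3.15 in wild-type livers, followed by the ubiquitin ligase Syvn1 at 2.76 in Atf6a-/- and 3.05 in wild-type livers. Between the genotypes after TM, 1 of the 14 was higher in Atf6a-/- livers (Gfpt1, 1.89) and 1 lower (Pdia4, a disulfide isomerase, -1.96). Genes of this list thus rose in both genotypes, while most called serpins fell in Atf6a-/- livers and were not called in wild-type livers.

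The secreted serpins did not stand alone among plasma proteins. Of 25 other secreted liver proteins, 20 fell with TM in Atf6a-/- livers (median -1.86) and 2 in wild-type livers (median -0.32), and none rose. Over all genes 12.8% fell in Atf6a-/- and 3.86% in wild-type livers. Hrg, histidine-rich glycoprotein, had -5.89 (adjusted p = 1.67e-08) and Hp, haptoglobin, -5.52 (adjusted p = 3.69e-08) in Atf6a-/- livers. Of 16 genes listed as regulators of liver serpin genes, 8 fell and 2 rose in Atf6a-/- livers, with the transcription factor Cebpa at -3.42 (adjusted p = 6.41e-07) and the interleukin-6 receptor Il6ra at -2.69 (adjusted p = 1.52e-05), and Socs3 at 1.27 and Il6st at 0.78. In wild-type livers 4 of these 16 fell, with Cebpa at -1.26, beside the same shares of all genes. Whether any of them bears on the serpins was not tested.

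Markers of cell types were read beside these results. Over all genes 12.8% fell and 15.2% rose in Atf6a-/- livers, and 3.86% fell and 3.45% rose in wild-type livers. Marker counts near these shares say little about a list. The 9 hepatocyte markers averaged 12.53 to 12.80 in Atf6a-/- TM animals, 13.18 to 13.64 in wild-type TM animals, 13.55 to 13.88 in Atf6a-/- vehicle animals and 13.71 to 13.88 in wild-type vehicle animals. In Atf6a-/- livers 6 of the 9 fell and in wild-type livers 2, led in Atf6a-/- livers by Apob (-2.29) and Cps1 (-1.96), while albumin had -0.48 and did not pass 1.5-fold. Of 10 stellate cell markers 2 fell in Atf6a-/- livers, and in wild-type livers none was called by limma (3 at an unadjusted p under 0.05). Of 8 neutrophil markers, which averaged 5.45 to 6.13 in Atf6a-/- TM animals, 5.11 to 5.56 in wild-type TM animals, 4.67 to 4.85 in Atf6a-/- vehicle animals and 4.77 to 5.00 in wild-type vehicle animals, 4 were dim, S100a8 rose in both genotypes (4.67 in Atf6a-/- and 2.31 in wild-type livers), S100a9 rose in Atf6a-/- livers (3.73) and had 1.66 in wild-type livers (adjusted p = 0.0993), and Elane, the elastase that α1-antitrypsin inhibits, was not called, at 6.32 to 7.17 in all animals. Of 9 Kupffer cell and macrophage markers, 2 rose and 4 fell in Atf6a-/- livers, and 1 rose and 3 fell in wild-type livers. Marco rose in both (1.58 in Atf6a-/- and 1.81 in wild-type livers), while Cd68 rose in Atf6a-/- livers (3.07) and had 0.37 in wild-type livers. The part of these cell types in the serpin results was not tested.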

How the data were processed

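RNA of 12 livers was hybridised to Affymetrix arrays. The authors deposited log2 values made with RMA (affy and limma are named in the submitters' processing notes; versions are not given in the sources used here). They were used as deposited. Of 45101 features, 64 AFFX controls were left out and 45037 tested in limma 3.58.1 (R 4.3.3) with 1 mean per group, eBayes, two-sided tests and Benjamini-Hochberg adjustment over all probe sets. The annotation gave 34945 probe sets 1 symbol, 932 several and 9160 none. The source field of the labels says 8 h, while titles and protocol say 34 h, which is used here. Summaries were made in pandas 2.3.3 and numpy 2.4.6 under Python 3.11.15, with plots in matplotlib 3.10.9. The fit was tested on simulated data with 200 changed genes. Each array is 1 animal, and the labels do not say that equal animal numbers pair animals. The alternatives were other normalizations, scalings and variance models, a filter keeping 23994 probe sets, 2 treatments of Xist, a replicate block, and leaving out each animal.

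The members and lists were chosen with earlier results of these data known. Members are given by animal when called in any comparison with a highest group mean of at least 6, and otherwise when on a fixed list (the Serpina1 genes, Serpina3k, Serpina3n, Serpina6, Serpina10, Serpinb1a, Serpinb6a, Serpinb8, Serpinb9, clade E genes, Serpinf1, Serpinf2, Serping1 and Serpinh1), of which those without a probe set of their own were not analysed here. Of each accompanying list, up to 2 rises and 2 falls in a comparison are named, with fixed partners of named serpins. Plg, F12, F10, Masp2, Gzmb, albumin, Csf1r, Col3a1, Serpina12 and Serpina4-ps1 fall outside this rule and were chosen after their values were seen.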

Additional observations from a re-analysis of the deposited data

Results flagged for a closer look

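The TM response differed between Atf6a-/- and wild-type livers, by the test of the difference itself, for 6 serpins. These were 15.8% of the 38 members, close to the 14.3% of all genes, so the count says little about the family. The difference of the responses, Atf6a-/- minus wild-type, was -4.57 for Serpina3n (adjusted p = 4.69e-04), -3.99 for Serpina6 (adjusted p = 5.47e-04), -3.72 for Serping1 (adjusted p = 1.41e-05), -2.30 for Serpina10 (adjusted p = 1.76e-04), -1.78 for Serpinf1 (adjusted p = 0.0124) and 2.63 for Serpinb6a (adjusted p = 6.98e-04). Without the animals with high Xist, the Serpinf1 difference was -1.35 (adjusted p = 0.0730), and the calls for the other 5 held under all alternatives tried.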

How the results depend on the processing

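Of 31 calls of single serpins, 20 held under every alternative and none changed sign. The number called in the wild-type TM response, 2, was 1 at a 2-fold threshold, 4 with the filter on dim probe sets, 5 with array weights, 4 with Xist as a covariate and 6 without the animals with high Xist (all lower but 1 with array weights). Leaving out 1 animal gave 1 to 4, with 1 without wild-type vehicle animal 2 and 4 without wild-type vehicle animal 1. For the Atf6a-/- response leaving out 1 animal gave 11 to 13, for Atf6a-/- against wild-type after TM 8 to 11, after vehicle 0 to 0 and for the difference of responses 6 to 9. The methods' t-test called 4 members after Benjamini-Hochberg for Atf6a-/- against wild-type livers after TM, in place of 10.

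Shifting each array by Btf3 and Ppia (the Ppia probe set also carries a second symbol) put the median of all genes at -0.53 in the Atf6a-/- response. In the wild-type response it put the median at -0.10. Without the shift these medians were -0.01 and -0.02. The shift by Btf3 and Ppia called 27 members (25 lower) in the Atf6a-/- response and 4 members in the wild-type response. It called 11 for the difference of responses and 15 for Atf6a-/- against wild-type livers after TM. Shifting by the hybridisation spike-ins put the medians at 0.46 and 0.33 and called 6 members in the wild-type response, 3 of them higher. Of all genes called in the Atf6a-/- response 54.2% were higher, against 15.8% with Btf3 and Ppia and 81.8% with the spike-ins. The values were 57.1%, 16.0% and 71.9% for Atf6a-/- against wild-type livers after TM, 47.2%, 38.3% and 85.9% for the wild-type response, and 53.0% and 14.7% (Btf3 and Ppia) for the difference of responses. With the spike-ins Serpinb8 stood at 0.26 in the Atf6a-/- response. The cause of these shifts was not tested.

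Animals with the same number correlated in their deviations by -0.18 to 0.373 (median 0.09) and others by -0.353 to 0.221 (median -0.06). The labels do not pair animals by number, and the numbers were not taken to pair them. In every group but wild-type TM, animal 1 was also the animal with high Xist, so number and Xist level were linked. With the replicate block 4 members were called in the wild-type response, and the other counts stayed within 1.5 times.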

Other observations

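Serpina12 (vaspin), chosen after its values were seen, followed the Xist level within the vehicle groups. It measured 6.43, 10.33 and 10.01 in Atf6a-/- vehicle animals and 5.94, 9.66 and 10.35 in wild-type vehicle animals, where animal 1 of each was the one with high Xist. After TM it was 4.99, 6.29 and 7.49 in Atf6a-/- animals and 8.50, 6.15 and 6.33 in wild-type animals. The value of 4.99 was that of the TM animal with high Xist. The Atf6a-/- response was -2.67 ± 1.25 (adjusted p = 0.146) and, with Xist as a covariate, -2.73 (adjusted p = 0.0106). The wild-type response was -1.66 ± 1.25 (adjusted p = 0.569) and was not called with Xist as a covariate. Without the animals with high Xist it was -3.01 (adjusted p = 0.0367), and the Atf6a-/- response was -3.28 (adjusted p = 0.0106). The neighbouring Serpina4-ps1, also chosen after its values were seen, measured 4.34, 5.48 and 6.45 in Atf6a-/- vehicle animals and 5.01, 7.78 and 6.44 in wild-type vehicle animals, against 4.13 to 4.44 in all TM animals. Its wild-type response was -2.15 ± 0.59 (adjusted p = 0.0531) and -2.52 with Xist as a covariate (adjusted p = 0.00811).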
